A study of Mus musculus with 34 samples.

Results

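The genes described here are 10 markers of visceral endoderm, Afp, Ttr, Apoa1, Apoa4, Apob, Apoe, Amn, Rbp4, Trf and Dab2. They were taken by symbol from every deposited gene table. All 10 were listed, among 46785 genes in the tables of embryo sections and 37145 genes in the tables of cultures. Visceral endoderm is the epithelium that covers the epiblast of the early mouse embryo and later lines the visceral yolk sac. It takes up maternal protein through large endocytic receptors and secretes carrier proteins and lipoproteins, much as the fetal liver does later. Definitive endoderm leaves the primitive streak during gastrulation and intercalates into this outer layer.

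The study asked about Evx1as, a long noncoding RNA beside the homeobox gene Evx1, in embryonic patterning. Pieces of C57/B6 embryos of embryonic day 7 were laser captured from frozen sections and profiled by Geo-seq, which makes RNA libraries from small captured pieces. Homozygous (Evx1as-/-) sections comprised 5 of primitive streak, 5 of mesoderm layer and 1 of anterior epiblast, and heterozygous (Evx1as+/-) sections comprised 6 of streak, 3 of mesoderm layer and 1 of anterior epiblast. Both genotypes carry a mutant allele, and no embryo without one was sampled. Each streak or mesoderm section has a layer number between 1 and 11, whose direction the labels do not give. The culture libraries were 3 of a 4x polyA knock-in line and 3 of wild-type CJ9 embryonic stem cells, both of strain 129S1/SVImJ and collected on day 4 without LIF, the cytokine that holds stem cells undifferentiated. Each arm was 1 line, and where the polyA signals were inserted is not stated in the labels.

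The levels are FPKM, in which the fragments of a gene are divided by its length and by the library's size, so levels of different genes can be set side by side. The tables hold no counts, and the depth of the libraries is unknown. Between 6806 and 10959 genes reached 1 FPKM in a section and between 12758 and 13073 in a culture. Mitochondrial RNAs took 2.03% to 3.21% of the FPKM of homozygous sections and 3.38% to 5.53% of that of heterozygous sections, ranges that do not overlap. A single RNA, Yam1, took 5.96% to 22.2% in homozygous and 1.07% to 33.1% in heterozygous sections. A rescaling without Yam1 and mitochondrial genes was among the alternatives run. The part of either in any result below was not tested otherwise. Evx1as itself, listed as 5730457N03Rik, was at 0 in 9 of 11 homozygous sections and reached 0.159 FPKM, against a median of 0.422 and a highest value of 4.57 FPKM in 10 heterozygous sections. In cultures it lay between 0.0674 and 0.137 FPKM in knock-in libraries and between 3.94 and 5.99 FPKM in wild-type libraries. Sections are not assigned to embryos in the labels, so sections may share one, in which case p-values over sections are too small. In 3 further sections the title and the other labels name different regions or layers, and these entered no comparison.

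In the coordinates of the section tables (mm10), Apoa1 (chr9:46228580-46230466) and Apoa4 (chr9:46240696-46243459) lie on the same strand with 10229 bases between them. Afp (chr5:90490737-90508907), Apob (chr12:7977648-8016835) and Amn (chr12:111271111-111276426) lie on the plus strand too, as does Dab2 (chr15:6386748-6440705). Apoe (chr7:19696109-19699166), Rbp4 (chr19:38116620-38125321) and Trf (chr9:103204001-103230444) lie on the minus strand. The liver-type factors HNF1, HNF4 and FOXA are known to act on many of these genes in liver and yolk sac, so the promoter table of RefSeq (GRCm38.p6; 250 bases before to 50 after each start) was searched on both strands for short forms of their motifs. It holds windows for 8 of the 10 markers. TGTTTGC, a FOXA form, stood in the windows of Afp, Apoa1 and Apob and in 5.07% of all 32851 promoter windows. CAAAGTNCA, an HNF4 form, stood in that of Apoa4 and in 1.41% of all windows. A shortened HNF1 form stood in that of Afp and in 0.399% of all. The other FOXA form TGTTTAC was in the windows of Apoe and Rbp4 (3.65% of all), and the GATA form AGATAA in that of Dab2 (11.2% of all). The full HNF1 form was in none of the 8 and in 0.00913% of all, and the shorter form was searched after this. No motif overlapped another in the stretches below. Shown are the 4 plus-strand markers with a match to TGTTTGC, the HNF4 form or the shortened HNF1 form upstream of their annotated start, on the plus strand and ending before the start, with the matches in capitals.
Afp, chr5:90490464-90490713: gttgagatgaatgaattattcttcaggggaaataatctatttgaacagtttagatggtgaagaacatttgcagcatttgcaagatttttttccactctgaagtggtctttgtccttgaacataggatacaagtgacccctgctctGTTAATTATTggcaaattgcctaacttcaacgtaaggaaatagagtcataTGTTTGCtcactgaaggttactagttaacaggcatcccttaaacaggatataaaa
Apoa1, chr9:46228380-46228579: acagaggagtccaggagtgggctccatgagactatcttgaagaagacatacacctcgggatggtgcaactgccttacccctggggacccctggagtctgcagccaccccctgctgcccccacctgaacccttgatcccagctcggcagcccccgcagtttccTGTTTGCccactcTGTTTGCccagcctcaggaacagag
Apoa4, chr9:46240594-46240695: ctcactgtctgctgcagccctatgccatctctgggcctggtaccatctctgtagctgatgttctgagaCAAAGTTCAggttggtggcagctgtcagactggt
Apob, chr12:7977427-7977647: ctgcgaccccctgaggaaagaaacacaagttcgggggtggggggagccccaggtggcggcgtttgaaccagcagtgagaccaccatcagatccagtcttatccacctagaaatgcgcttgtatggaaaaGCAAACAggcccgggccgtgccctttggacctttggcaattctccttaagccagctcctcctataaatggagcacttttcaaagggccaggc
Apoa1 has a pair of TGTTTGC matches close to its start, and Apob has the same letters on the opposite strand. A match describes letters in these windows and shows neither binding nor a cause of the levels below.

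The markers were highest in a pair of homozygous sections, streak layer 11 and mesoderm layer 9. In these libraries, in that order, the 10 genes summed to 1558 and 994 FPKM, which is 0.580% and 0.437% of all FPKM in each. In the other 22 sections they took between 0.0137% and 0.129%. The streak section held the highest value of 9 markers, and the mesoderm section that of Trf, the iron carrier transferrin. For 9 markers these were the top 2 of 21 sections with a group, and for Apob homozygous streak layer 1 came between them. Only these sections had all 10 markers at 1 FPKM or more, against 8 in homozygous streak layer 1, 6 in homozygous mesoderm layer 5 and 5 or fewer in every other section. Neither library stood outside the others in genes detected (9688 and 9065) or mitochondrial share (2.92% and 2.45%).

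**Figure D1:**
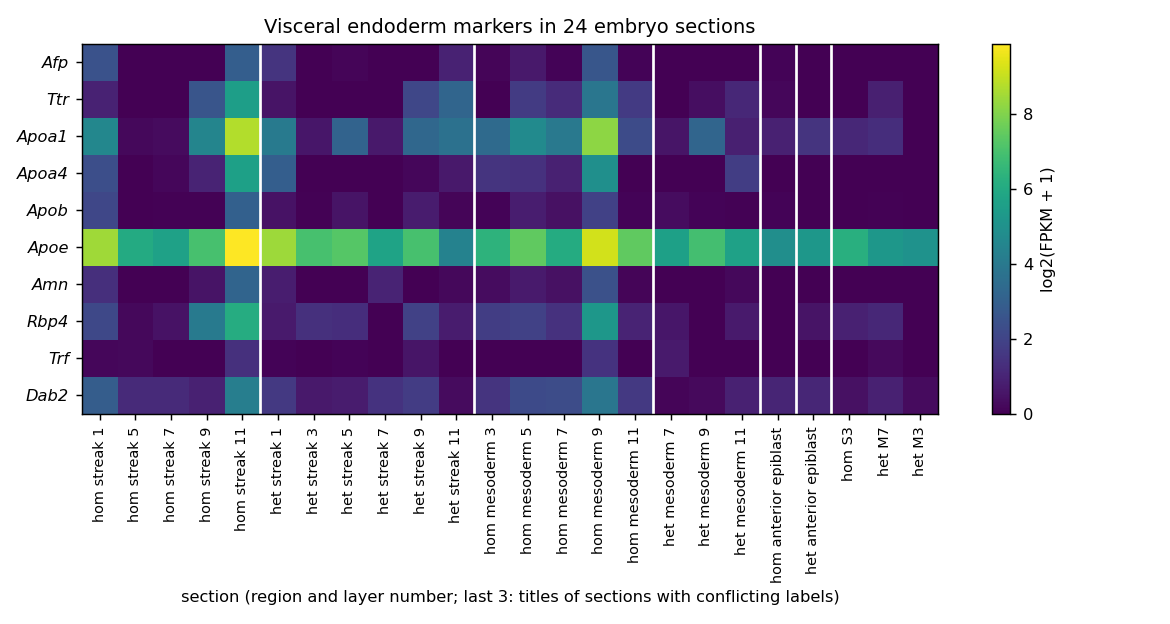
Level of each marker (rows) in each of 24 embryo sections (columns), as log2(FPKM + 1); hom is homozygous and het heterozygous, numbers are layers, and the last 3 columns carry the titles of sections with conflicting labels. Homozygous streak layer 11 and homozygous mesoderm layer 9 are bright over most rows, while Apoe is bright in every column.

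Apoa1, the main protein of high-density lipoprotein, set these sections furthest apart. It was at 419 FPKM in homozygous streak layer 11 and 294 FPKM in homozygous mesoderm layer 9. The next section, homozygous mesoderm layer 5, had 25.2 FPKM, so the highest was 16.7 times that level. Apoa4, another protein of secreted lipoproteins, reached 47.9 and 29.04 FPKM there and 6.73 FPKM in the next section, heterozygous streak layer 1. Apob, the core protein of the lipoproteins that visceral endoderm secretes, was low throughout, with 7.16 FPKM in homozygous streak layer 11, 3.30 FPKM in homozygous streak layer 1 and 2.78 FPKM in homozygous mesoderm layer 9. All 3 genes therefore had homozygous streak layer 11 at the top.

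Apoe, which many cell types make, was the only marker above 1 FPKM in all 24 sections. It was at 936 and 593 FPKM in the pair and between 19.7 and 356 FPKM in the other 19 sections with a group. The lowest value belonged to heterozygous streak layer 11, the section with the third-highest Ttr. The levels of Apoe and of the other markers thus did not rank the sections alike.

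The plasma carriers differed in level. Rbp4, the retinol carrier, was at 67.5 and 36.9 FPKM in the pair, and homozygous streak layer 9 followed with 15.7 FPKM. Ttr, which binds thyroid hormone and the Rbp4 protein, was at 45.8 and 13.7 FPKM, followed by heterozygous streak layer 11 with 8.26 FPKM. Afp, the fetal serum protein that marks visceral endoderm in embryos, was at 6.67 and 5.16 FPKM. Homozygous streak layer 1 lay close behind for Afp, at 4.59 FPKM, and 13 of 24 sections listed it at 0. Trf was at 1.62 FPKM in homozygous streak layer 11 and 1.75 FPKM in homozygous mesoderm layer 9, and below 1 FPKM in every other section.

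The endocytic genes were also highest in the pair. Amn, the membrane anchor that carries the cubilin receptor to the cell surface, was at 8.16 and 4.40 FPKM in the pair and 1.52 FPKM in homozygous streak layer 1. Dab2, a clathrin adaptor for endocytic receptors that parietal endoderm also uses, was at 17.8 and 13.7 FPKM, with 6.53 FPKM in homozygous streak layer 1. Dab2 was above 0 in all 24 sections. Between the sections of the pair, the ratio of streak to mesoderm ran from 0.924 for Trf to 3.34 for Ttr.

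Within the homozygous genotype the pair did not share a layer, and the other region at the same layer was far lower. At layer 11, mesoderm against streak, Apoa1 was at 3.73 against 419 FPKM and Rbp4 at 0.974 against 67.5 FPKM, and all 10 markers were lower in mesoderm. At layer 9, mesoderm against streak, Apoa1 was at 294 against 21.7 FPKM and all 10 markers were higher in mesoderm. The marker levels therefore did not follow the layer number in both regions.

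**Figure D2:**
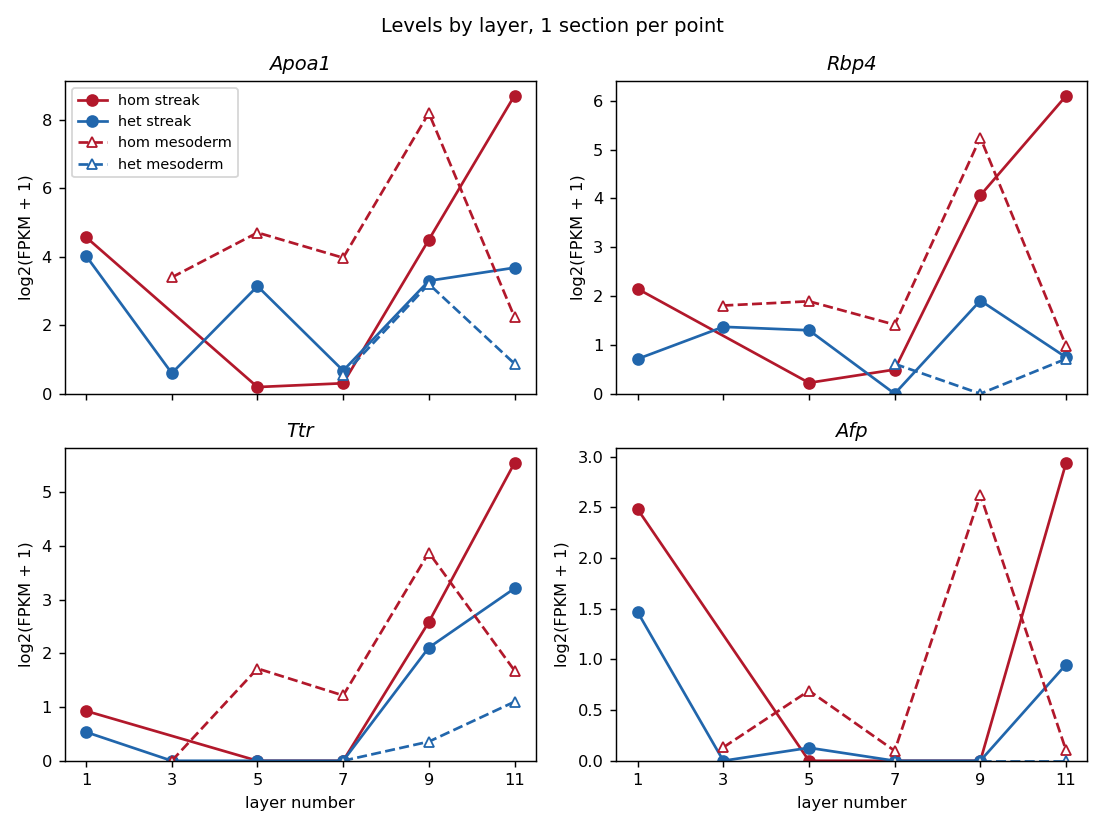
Levels of Apoa1, Rbp4, Ttr and Afp as log2(FPKM + 1) against layer number, 1 section per point; red is homozygous, blue heterozygous, filled circles streak and open triangles mesoderm. The homozygous streak line ends at its highest point at layer 11 and the homozygous mesoderm line peaks at layer 9, while Afp also has raised points at streak layer 1.

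The layer 1 streak sections of both genotypes held more Afp relative to Apoa1 than the pair. Per 100 FPKM of Apoa1, Afp was at 20.1 and 11.5 in homozygous and heterozygous streak layer 1, against 1.59 in homozygous streak layer 11 and 1.75 in homozygous mesoderm layer 9. Heterozygous streak layer 11, at 7.86, and homozygous mesoderm layer 5, at 2.44, also lay above the pair, and the remaining sections below it. Apoe was at 1560 and 2221 per 100 FPKM of Apoa1 in the layer 1 sections, against 223 and 201 in the pair. The Apoe ratio was not particular to layer 1, since heterozygous streak layers 5 and 9 had 1956 and 1416 and heterozygous mesoderm layer 9 had 1458. Ttr was at 3.95 and 2.93 per 100 FPKM of Apoa1 in the layer 1 sections, against 10.9 and 4.66 in the pair, and its highest ratio was 69.7 in heterozygous streak layer 11. These ratios are single values in single sections, given for the 12 sections with at least 5 FPKM of Apoa1, and were not tested. Rbp4 stood out in homozygous streak layer 9, at 72.5 per 100 FPKM of Apoa1, where Afp was listed at 0.

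**Figure D3:**
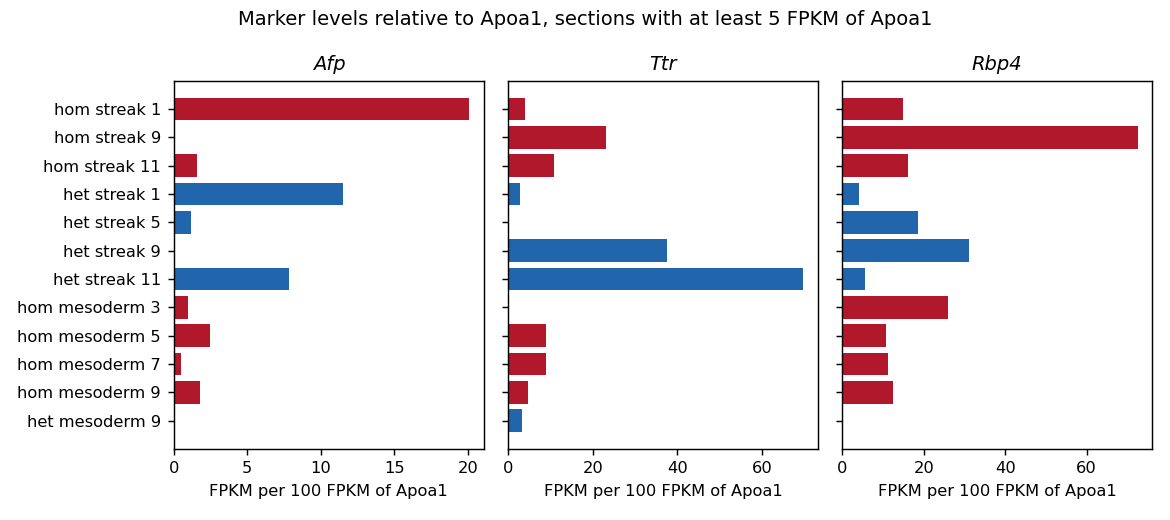
Afp, Ttr and Rbp4 in FPKM per 100 FPKM of Apoa1 (bars from 0) in the 12 sections with at least 5 FPKM of Apoa1; red is homozygous and blue heterozygous. The longest bars belong to streak layer 1 for Afp (20.1), heterozygous streak layer 11 for Ttr (69.7) and homozygous streak layer 9 for Rbp4 (72.5).

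Other genes of the tissue, named here after their values were seen, were also high in the pair, while their lists as a whole did not all rank it high. Apom and Apoc2, apolipoproteins outside the 10, were at 93.3 and 133 FPKM in homozygous streak layer 11 and at 41.9 and 63.8 FPKM in homozygous mesoderm layer 9. Their highest values in the other 19 sections were 19.3 and 30.8 FPKM, both in homozygous streak layer 9. Summed over their list of 10 apolipoprotein and lipid export genes, the pair ranked 1 and 2 of 21. Other genes of that list went the other way. Apoa2, Apoc1, Apoc3 and Fabp1 reached 7.28, 8.12, 8.91 and 19.6 FPKM outside the pair. In homozygous streak layer 11 they were at 1.69, 2.07, 0 and 4.52 FPKM, and in homozygous mesoderm layer 9 at 0, 2.80, 0 and 1.10 FPKM. Cubn, the cubilin receptor that Amn carries, was at 3.77 and 1.95 FPKM in the pair and at most 0.639 FPKM elsewhere. Hnf4a, a nuclear receptor of visceral endoderm and liver, was at 2.28 and 2.42 FPKM in the pair and at most 1.25 FPKM elsewhere. Alb, the albumin of liver, was listed at 0 in all 21. Summed over the 9 visceral endoderm transcription factors, homozygous streak layer 11 ranked 11 and homozygous mesoderm layer 9 ranked 5 of 21, with Gata6 at 0.0846 and 5.75 FPKM. Over 7 anterior visceral endoderm genes they ranked 14 and 6. Over 5 other visceral endoderm genes, Spink1, Ihh, S100g, Cited1 and Rhox5, they ranked 1 and 2, and over 10 serum proteins 1 and 4. The lists overlap. Foxa2 and Sox17 are also in the definitive endoderm list, as is Cer1 of the anterior visceral endoderm list.

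Factors of definitive endoderm had another distribution. Foxa2, a regulator of endoderm and of the node, was at 0.205 FPKM in homozygous streak layer 11 and 3.47 FPKM in homozygous mesoderm layer 9. It was at 64.7 and 68.7 FPKM in homozygous and heterozygous streak layer 1. Trh, which definitive endoderm and node precursors express, was at 9.01 and 37.1 FPKM in the pair and at 331 and 87.3 FPKM in those layer 1 sections. The layer 1 sections, with 8 markers at 1 FPKM or more in homozygous and 5 in heterozygous streak, thus had high Foxa2 and Trh. Trh was not confined to them, with a median of 34.4 FPKM in the 19 sections other than the pair. The sum of the definitive endoderm genes reached 443 FPKM in homozygous streak, but also 391 FPKM in homozygous mesoderm. It was 103 FPKM in homozygous anterior epiblast, which held little of the markers. Homozygous streak layer 11 had the highest levels of 9 markers with little Foxa2. Summed over the 6 definitive endoderm genes, homozygous streak layer 11 ranked 19 of 21 sections and homozygous mesoderm layer 9 ranked 10. Summed over 9 parietal endoderm genes they ranked 5 and 7, over 10 extraembryonic ectoderm genes 5 and 11, and over 8 blood and endothelial genes 6 and 2. The part of these cells in the marker levels was not tested, and in a captured piece fewer cells of a type and less RNA per cell cannot be told apart.

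Across the 21 sections the markers varied together. The 45 pairs of markers had Pearson correlations of log2(FPKM + 1) between 0.53 and 0.92, with a median of 0.78. Without the pair of highest sections the median over 19 sections was 0.47 and the range -0.16 to 0.81. Amn followed the mean of the other 9 most closely, with r = 0.93, and Trf least, with r = 0.77 over 21 sections and -0.04 over 19. The points share a capture and amplification protocol and may share embryos, and the values are descriptions. Among 2963 other genes averaging 5 FPKM or more, the 10 most like the mean of the markers were Apom (r = 0.92), Lgmn (0.86), Spink1 (0.80), Rhox5 (0.80), Ctsl (0.79), Cited1 (0.75), Ctsz (0.75), Apoc2 (0.74), Cltc (0.71) and Fth1 (0.70). Lgmn, Ctsl and Ctsz encode lysosomal proteases and Cltc encodes the clathrin heavy chain. The 5 FPKM average and the mean of the markers both include the pair of highest sections. Apom, Lgmn and Apoc2 reached that average only through the pair, with medians of 0.596, 3.43 and 0.911 FPKM in the other 19 sections. Their r over 21 sections is therefore no support for a shared pattern. Without the pair, r over 19 sections was 0.82 for Apom, 0.67 for Lgmn, 0.88 for Spink1, 0.84 for Rhox5 and 0.46 for Ctsl. It was 0.62 for Cited1, 0.55 for Ctsz, 0.26 for Apoc2, 0.58 for Cltc and 0.63 for Fth1. Spink1, a secreted protease inhibitor, was at 322 and 224 FPKM in the pair but also at 277 FPKM in homozygous streak layer 1.

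Between homozygous and heterozygous streak sections no marker passed the test against the spread between sections. Of the 10 markers 9 reached a mean of 1 FPKM and 0 passed an adjusted p of 0.05 or had an unadjusted p under 0.05 (limma on log2(FPKM + 1) with layer as a covariate, Benjamini-Hochberg over all genes). In this comparison 0.0201% of all genes passed, all of them lower, while 0.745% were higher and 0.101% lower with no overlap between the genotypes. Apoa1 was at 22.8, 0.145, 0.236, 21.7 and 419 FPKM in homozygous streak layers 1, 5, 7, 9 and 11, against a lowest, median and highest value of 0.516, 8.35 and 15.3 FPKM in 6 heterozygous sections. The groups overlapped, since homozygous layers 5 and 7 lay below every heterozygous section and layers 1, 9 and 11 above all. Its log2 change was 0.96 ± 1.21 (SE; adjusted p = 0.778), and it was -0.18 without homozygous layer 11. Rbp4 was at 3.43, 0.167, 0.409, 15.7 and 67.5 FPKM in homozygous streak in the same order, against 0, 1.07 and 2.75 FPKM as the lowest, median and highest of heterozygous streak. It had the smallest adjusted p of the markers, 0.531, with a log2 change of 1.48 ± 0.78, and 0.75 without homozygous layer 11. The 9 log2 changes were all positive, as were 72.0% of those of all genes, and their median was 0.86 beside 0.25 over all genes. Apob, Amn and Afp passed the filter through the homozygous sections alone. Without homozygous layer 11 the median of those that passed was 0.09. At layer 5 only 2 markers were higher and 5 lower in homozygous streak, and at layer 11 all 10 were higher.

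In mesoderm 6 markers reached the mean of 1 FPKM and 0 passed the threshold (limma, as in streak), where 0.196% of all genes did, all of them higher. An unadjusted p under 0.05 was found for 5 of the 6, and for 1344 of 8695 genes. Dab2 was at 1.76, 3.59, 3.90, 13.7 and 2.10 FPKM in homozygous mesoderm layers 3, 5, 7, 9 and 11, against 0.0888, 0.201 and 0.872 FPKM in heterozygous mesoderm layers 7, 9 and 11. Every homozygous section was above every heterozygous one. The log2 change was 2.10 ± 0.54 (SE; limma, adjusted p = 0.115), and 1.56 without homozygous layer 9 (adjusted p = 0.327). Rbp4 was at 2.50, 2.71, 1.66, 36.9 and 0.974 FPKM in homozygous mesoderm and at 0.527, 0 and 0.640 FPKM in heterozygous mesoderm, in the same layer order. It did not overlap either and had a log2 change of 1.98 ± 0.88 (adjusted p = 0.319), with 0.86 without homozygous layer 9. Of all genes 8.60% were higher and 1.06% lower in homozygous mesoderm with no overlap. Apoa1 was at 9.57, 25.2, 14.7, 294 and 3.73 FPKM in homozygous mesoderm, against 0.460, 8.23 and 0.838 FPKM in heterozygous mesoderm, and the groups overlapped in layer 11 of the homozygous sections. Its log2 change was 3.09 ± 1.23 (adjusted p = 0.275), and 1.68 without homozygous layer 9.

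The other mesoderm markers did not pass either. Ttr was at 0, 2.29, 1.32, 13.7 and 2.21 FPKM in homozygous mesoderm and at 0, 0.281 and 1.14 FPKM in heterozygous mesoderm, with a log2 change of 1.77 ± 0.63 (limma, adjusted p = 0.235). Apoe changed by 1.59 ± 0.65 on the same scale (adjusted p = 0.284) and Apoa4 by 1.34 ± 1.01 (adjusted p = 0.564). Dab2, Rbp4, Apoa4 and Ttr passed the filter through the homozygous sections alone, so the positive sign of all 6 is no support for a difference. With no filter the median of the markers was 1.46. Homozygous mesoderm layers 3 and 5 have no heterozygous counterpart. Where both genotypes had a section, 9 markers were higher and 1 lower in homozygous mesoderm at layer 7, 10 higher at layer 9, and 7 higher and 2 lower at layer 11. In the mesoderm fit 70.4% of all genes had a positive change, and shares of all genes at single layers were not computed.

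**Figure D4:**
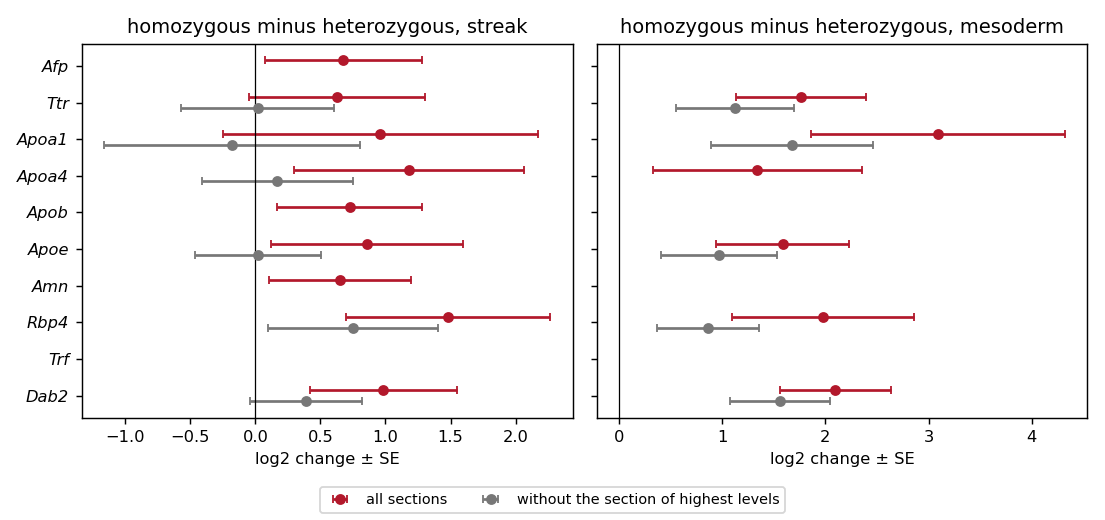
Log2 change (homozygous minus heterozygous) of each marker that passed the filter, with its standard error, in streak and in mesoderm sections; red points use all sections and grey points leave out the homozygous section of highest levels. Without that section the streak points of Apoa1, Apoe and Ttr lie near 0, markers with only a red point no longer passed the filter, and Trf was not tested.

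With both regions in 1 fit of 19 sections, 7 markers were tested and 0 passed the adjusted threshold, where 1.25% of all genes did, 1.13% higher and 0.115% lower. An unadjusted p under 0.05 was found for 3 markers and for 1920 of 9527 genes. Dab2 had a log2 change of 1.35 ± 0.42 (limma, adjusted p = 0.0855) and Rbp4 of 1.76 ± 0.61 (adjusted p = 0.119), and both, like Afp, passed the filter through the homozygous sections alone. Without the pair of highest sections these were 0.77 (adjusted p = 0.300) and 0.88. A difference of the genotype effect between mesoderm and streak was not detected for any of the 7 (limma interaction term, smallest adjusted p = 0.999, and 0 with an unadjusted p under 0.05). In that test 0 of all genes passed (0%), and 337 genes had an unadjusted p under 0.05.

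Between mesoderm and streak sections of both genotypes, of 7 markers 0 passed and 0 had an unadjusted p under 0.05 (smallest adjusted p = 0.296, limma with genotype and layer as covariates), where 18.1% of all genes passed, 0.483% higher and 17.6% lower. Apoa1 ran from 0.460 to 294 FPKM over 8 mesoderm sections, with a median of 8.90, and from 0.145 to 419 FPKM over 11 streak sections, with a median of 8.86. Dab2 had medians of 1.93 FPKM in mesoderm and 1.26 FPKM in streak. The regions overlapped over almost their whole range in both genes. Layer by layer, homozygous mesoderm was above homozygous streak in 9 markers and below in 1 at layer 5, above in 9 and below in 0 at layer 7, above in 10 at layer 9 and below in 10 at layer 11. Heterozygous mesoderm was above heterozygous streak in 3 and below in 4 at layer 7, above in 0 and below in 8 at layer 9, and above in 3 and below in 6 at layer 11. In the regional fit 15.6% of all genes had a positive change, and shares at single layers were not computed.

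Along the layer numbers 0 of 7 markers passed the adjusted threshold, where 1.05% of all genes did, 0.168% with a rising and 0.882% with a falling slope. An unadjusted p under 0.05 was found for 1 marker and for 1385 of 9527 genes. Ttr came nearest, with a slope of 0.31 ± 0.08 on the log2 scale per layer number (adjusted p = 0.0622, limma), and 0.20 without the pair of highest sections (adjusted p = 0.163). In heterozygous streak Ttr was listed at 0 in layers 3, 5 and 7 and was at 0.449, 3.31 and 8.26 FPKM in layers 1, 9 and 11. Of 5 definitive endoderm genes measured 4 fell with layer number, among them Trh by 0.46 and Foxa2 by 0.45 per layer (adjusted p = 0.00115 and 0.0102). The fall was not particular to that list. Of 5 visceral endoderm transcription factors measured 3 fell (Foxa1, Foxa2 and Sox17), and of 6 anterior visceral endoderm genes 3 (Lhx1, Hhex and Cer1). Foxa2, Sox17 and Cer1 are shared with the definitive endoderm list, and the call of Foxa1 held in 9 of 25 alternatives. Without the layer 1 sections Trh had a slope of -0.48 (adjusted p = 0.0440), while Foxa2 (-0.23, adjusted p = 0.384), Cer1 (-0.33, adjusted p = 0.348) and Sox17 (-0.17, adjusted p = 0.618) did not pass. Leaving out either layer 1 section alone also ended the calls of Foxa2 (adjusted p = 0.0670 without the homozygous and 0.0812 without the heterozygous one), Cer1 (0.0524 and 0.0751) and Sox17 (0.112 and 0.255).

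The anterior epiblast sections, 1 per genotype and without a test, held little of the markers. Apoa1 was at 0.872 FPKM in the homozygous section and 1.84 FPKM in the heterozygous one, and Apoe at 28.6 and 36.6 FPKM in that order of genotype. Dab2 was at 1.01 FPKM and 1.07 FPKM. Afp and Ttr were below 0.2 FPKM in the homozygous section and listed at 0 in the heterozygous one.

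In day 4 cultures only Apoe and Dab2 were expressed above the filter, and Dab2 fell in knock-in cells. Dab2 was at 8.77, 7.35 and 9.27 FPKM in knock-in cultures 1 to 3, against 21.9, 25.002 and 11.6 FPKM in wild-type cultures 1 to 3. The groups did not overlap, and the lowest wild-type library lay close above the highest knock-in one. The log2 change was -1.05 ± 0.27 (SE; limma, Benjamini-Hochberg adjusted p = 0.0201). Of all genes 32.4% passed in this comparison, 16.2% higher and 16.2% lower, and 24.0% were lower with no overlap. The call was lost without wild-type replicate 1 (adjusted p = 0.0690), wild-type replicate 2 (0.0607) or knock-in replicate 2 (0.0682), and with no filter on low values (0.0747).

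Apoe did not pass. It was at 345, 268.4 and 268.1 FPKM in knock-in cultures and at 225, 249 and 210 FPKM in wild-type cultures, again without overlap. Its log2 change was 0.36 ± 0.13 (limma, adjusted p = 0.0722), and 24.4% of all genes were higher with no overlap. Afp, Ttr and Apoa4 were listed at 0 in all 6 cultures. Apoa1 was at 0.425, 0.435 and 0.506 FPKM in knock-in cultures and listed at 0 in wild-type cultures, and its deposited interval reached 0 in every library. With no filter on low values it was the marker that passed (log2 change 0.54, limma adjusted p = 0.00289). Rbp4 was at 0.234, 0.743 and 1.15 FPKM in knock-in cultures and at 0, 0.317 and 0.369 FPKM in wild-type cultures. Amn, Apob and Trf stayed below 0.5 FPKM in all 6.

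**Figure D5:**
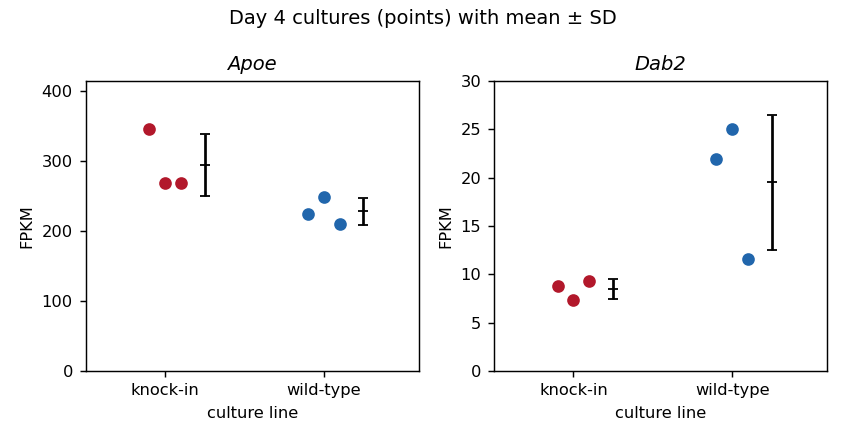
Apoe and Dab2 in FPKM in 3 knock-in and 3 wild-type cultures on day 4 (points), with mean ± SD (black bars). Dab2 lies between 7.35 and 9.27 in knock-in cultures and between 11.6 and 25.002 in wild-type cultures.

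Some endocytic receptors fell as well. Of 10 receptors and chaperones for the ligands of this group 7 were measured, 4 fell and 0 rose. Beside this and the list counts that follow, 16.2% of all genes passed as higher and 16.2% as lower. Lrp2, the megalin receptor, averaged 7.44 ± 1.42 FPKM in knock-in and 30.1 ± 6.54 FPKM in wild-type cultures (SD, n = 3 each; limma log2 change -1.87, adjusted p = 0.000742). Lrp1, another large endocytic receptor, fell by 0.82 on the log2 scale (limma, adjusted p = 0.0404) and the receptor chaperone Lrpap1 by 0.62 (adjusted p = 0.0191). Leaving out wild-type replicate 1, wild-type replicate 2, knock-in replicate 1 or knock-in replicate 2 ended the call of Lrp1, and wild-type or knock-in replicate 2 that of Lrpap1. The call of Lrp1 was also lost with no filter on low values (limma adjusted p = 0.119) and with a replicate block (0.0510). In the libraries of 1 lane, with a lone wild-type library, the log2 changes of Lrp1 and Lrpap1 were -0.88 and -0.96. All 5 measured parietal endoderm genes fell, among them Col4a2, a basement membrane collagen, with 2.44 ± 0.198 FPKM in knock-in and 21.4 ± 7.50 FPKM in wild-type cultures (SD, n = 3 each; limma adjusted p = 0.000518). Lamc1, another of them, lost its call without wild-type replicate 1 (limma adjusted p = 0.0595) or wild-type replicate 2 (0.0617). Other lists moved too. Streak and nascent mesoderm genes summed to a median of 55.7 FPKM in knock-in and 248 FPKM in wild-type cultures, and 5 of 6 measured fell. Epiblast genes summed to a median of 1763 FPKM in knock-in and 644 FPKM in wild-type cultures, and all 6 rose. Of 2 measured feeder fibroblast genes, Col1a1 fell, with 1.65 ± 0.0566 FPKM in knock-in and 6.81 ± 3.10 FPKM in wild-type cultures, and Thy1 rose, with 18.1 ± 1.33 and 3.38 ± 0.989 FPKM in that order (SD, n = 3 each). The part of these cell types in the fall of Dab2 was not tested.

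Regulators of visceral endoderm moved in both directions. Of 9 listed factors 4 were measured, 2 rose and 1 fell, beside 16.2% of all genes higher and 16.2% lower. Gata6, a regulator of primitive endoderm, averaged 0.191 ± 0.218 FPKM in knock-in and 2.99 ± 1.16 FPKM in wild-type cultures (SD, n = 3 each; limma log2 change -1.72, adjusted p = 0.00304). Foxa2 averaged 6.83 ± 6.03 FPKM in knock-in and 0.772 ± 0.254 FPKM in wild-type cultures (log2 change 1.89, limma adjusted p = 0.0170), with 3.10, 3.60 and 13.8 FPKM in knock-in replicates 1 to 3. Its call was lost without wild-type replicate 2 (limma adjusted p = 0.0528), with no filter (0.0763) and in the libraries of 1 lane (0.0986). Gata4 rose by 0.68 (adjusted p = 0.0370), a call lost in 9 of 12 alternatives. Cited1, a transcriptional cofactor that nascent mesoderm also expresses, averaged 4.76 ± 2.33 FPKM in knock-in and 84.6 ± 20.5 FPKM in wild-type cultures. Trh averaged 59.1 ± 7.23 FPKM in knock-in and 6.10 ± 1.46 FPKM in wild-type cultures, and both genes passed (adjusted p = 0.000276 and 9.97e-05, limma).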

How the data were processed

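Per the submitters' processing notes, reads were handled with CASAVA and TopHat2 2.0.11 and mm10. The authors deposited 1 gene table per library with FPKM values and an interval for each, in a Cufflinks column layout, per the file headers. The tool that made the values, its annotation and the use of strand in counting are not given in the sources used here. Starts of genes lay within 1000 bases of GENCODE vM21 (mm10) for 94.5% of genes in section tables and 4.82% in culture tables, so positions come from section tables. Values below 1e-06 FPKM were set to 0, and Trf and Dab2, listed under a second identifier in culture tables, use the identifier that both kinds of table share. Tests used limma 3.58.1 in R 4.3.3 with a mean-dependent prior on log2(FPKM + 1), which understates changes of low genes, for genes whose average reached 1 FPKM in the comparison's libraries. They are two-sided, with Benjamini-Hochberg adjustment over all genes tested and a threshold of 0.05. The fits were tested on simulated data. The markers, lists and tests were chosen with earlier results of these data known. All markers are named in every comparison or counted in it, with the 10 genes most like the markers. List genes past the threshold are named or counted for some lists only, so an unmentioned list may hold calls. Of anterior visceral endoderm genes, 1 of 5 measured rose and 2 fell in cultures, beside 16.2% of all genes each way. In the fit of both regions 2 of 6 were higher in homozygous sections, beside 1.13% of all genes. In mesoderm against streak, 3 of 5 definitive endoderm genes and 2 of 5 visceral endoderm factors were higher, beside 0.483% of all genes. Alternatives changed the pseudocount, scaling, filter, covariates, use of conflicting labels and single libraries. The 4 posterior embryo pieces were not analysed here. Python 3.11.15 with pandas 2.3.3, numpy 2.4.6 and matplotlib 3.10.9 was used for the remainder. Whether replicates in a group came from separate cultures or embryos is not stated, and p-values then measure the spread between these samples. The values of 1 gene of the receptor list are not reported here.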

Additional observations from a re-analysis of the deposited data

Results flagged for a closer look

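Values were looked at again where, in a group of 5 or 6 sections, the highest stood apart from the next by more than the 95% critical value of Dixon's test. For normally distributed values chance alone flags about 1 in 20 groups. Raw FPKM with many zeros need not be so distributed, so that rate may not hold here. Of 30 groups of values 18 were flagged, 6 through homozygous streak layer 11 and 10 through homozygous mesoderm layer 9, the pair already described as highest. In homozygous streak, layer 11 stood apart for Ttr (45.8 FPKM, next 5.00), Apoa1 (419, next 22.8), Apoa4 (47.9, next 4.197), Amn (8.16, next 1.52), Rbp4 (67.5, next 15.7) and Trf (1.62, next 0.147). In homozygous mesoderm, layer 9 stood apart for all 10 markers. These were Afp (5.16 FPKM, next 0.615), Ttr (13.7, next 2.29), Apoa1 (294, next 25.2), Apoa4 (29.04, next 1.77), Apob (2.78, next 0.709), Apoe (593, next 174), Amn (4.40, next 0.647), Rbp4 (36.9, next 2.71), Trf (1.75, with all others at 0) and Dab2 (13.7, next 3.90). In heterozygous streak, layer 1 stood apart for Apoa4 (6.73 FPKM, next 0.614) and layer 9 for Trf (0.458, next 0.0809). The markers of a section come from 1 library, so these are few independent events.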

How the results depend on the processing

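No marker passed in the streak, region or interaction comparisons under any of the 22, 30 and 30 alternatives run. In mesoderm 1 marker passed when the sections with conflicting labels were added by title (Dab2, log2 change 1.83, adjusted p = 0.0439). In both regions 2 passed when they were added by cell type label (Dab2, 0.0413; Rbp4, 0.0454). Along the layers 1 marker, Ttr, passed with median-ratio scaling (adjusted p = 0.0494) and with those sections added by cell type label (0.0264) or title (0.0412), and leaving out single sections gave 0 to 1 (0.0363 without homozygous streak layer 7). In cultures leaving out single libraries gave 0 to 1, and with no filter the 1 marker that passed was Apoa1, not Dab2. The cause was not tested. Apoa1 in streak turned to -0.18 without homozygous layer 11, and likewise without the 2 highest sections, a setting chosen after seeing the data. The median of all genes was 0.25 in streak, 0.31 in mesoderm and -0.42 for mesoderm against streak. With median-ratio scaling the marker medians were 0.68 in streak and 1.65 in mesoderm, against 0.86 and 1.87, and the regional one turned to 0.13 where it was -0.22. Same-numbered cultures did not deviate together (correlations -0.12, -0.05 and -0.05), and the replicate block left 1 marker, Dab2 (adjusted p = 0.0377). Lane tokens in file names left knock-in replicates 2 and 3 and wild-type replicate 2 in 1 lane, where Dab2 had a log2 change of -1.49 (adjusted p = 0.0446); the lone wild-type library, the highest in Dab2, is assumed to vary like the others. Depth is unknown, so no detection limit can be given.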

Other observations

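The 3 sections with conflicting labels held little of the markers. The homozygous section titled S3, whose cell type label is mesoderm, had Apoe at 73.0 FPKM, Apoa1 at 1.14 and Rbp4 at 0.867. The heterozygous section titled M7, labelled streak, had Apoe at 36.4 FPKM, Apoa1 at 1.48, Rbp4 at 1.12 and Ttr at 0.810. The heterozygous section titled M3, labelled streak layer 5, had Apoe at 32.0 FPKM and Dab2 at 0.227, with the other 8 markers listed at 0. Afp, Apoa4 and Amn were listed at 0 in all 3.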
